A study of Mus musculus with 2 samples.

Results

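The endoplasmic reticulum (ER) is where secreted proteins enter the secretory pathway, and 46 genes of that entry and folding machinery are described here in single cells of the embryonic mouse pancreas. They were taken as a list of gene symbols, and all 46 were among the 27998 genes in the files. By role they comprised 9 chaperones and their helpers, 2 lectin chaperones, 10 disulfide and proline isomerases and oxidases, 4 genes of ER-associated degradation (ERAD), 4 stress factors, 7 translocon genes, 4 signal peptidase genes, 5 genes of the oligosaccharyltransferase and 1 retrieval receptor.

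A nascent secreted protein is threaded through the Sec61 channel, loses its signal peptide to the signal peptidase and receives N-linked sugars from the oligosaccharyltransferase. Chaperones led by BiP, the product of Hspa5, and the protein disulfide isomerases then fold it, and chains that fail are pulled back out and destroyed by ERAD. When unfolded chains accumulate, the sensors IRE1, PERK and ATF6 start the unfolded protein response, in which XBP1, ATF4 and CHOP (Ddit3) act as transcription factors. In the pancreas the acinar cells secrete digestive enzymes and the beta cells secrete insulin, and both carry an extensive ER.

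The libraries were droplet 3' single-cell RNA-seq of 1 control pancreas and 1 knockout pancreas from C57BL/6 embryos at embryonic day 18.5, the knockout being named Dpy30∆P in the series title. Dpy30 encodes a shared subunit of the trithorax-type histone H3 lysine 4 methyltransferase complexes. The sources used here name neither the driver of the deletion nor the deleted part of the gene, and give no further genotype for the control. Each group was 1 library, so no test between groups was possible, and the 95% intervals given below cover the counting of unique molecular identifiers (UMIs) only.

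After filters, 2603 control cells with a median of 6829 UMIs and 3229 knockout cells with a median of 6630 UMIs were kept. Over all kept cells Dpy30 took 113 counts per 1000000 UMIs (CPM) of the control library and 143 CPM of the library labelled knockout. That value checks neither the labels nor the deletion, since 3' tags can lie outside the deleted part, which the labels do not name. The Y-linked gene Ddx3y had 1567 control and 0 knockout UMIs, so the pancreases differed in sex as well as in label. The libraries shared 27 barcodes, 12 of them among the kept cells.

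Cells were named from marker genes after clustering without the 46 genes, enzymes or hormones, and every name used below rests on at least 3 markers. By a fixed CPM rule the clusters called acinar had 8 to 10 of 12 acinar markers high, among them Ptf1a, Rbpjl and Bhlha15. The beta clusters had 8 of 9 beta markers high, among them Ins1, Ins2, Iapp and Slc2a2. Pnlip was not high in any acinar cluster, and the beta marker Mafa had 0 UMIs in beta cells of either library. The acinar class held 2 enzyme mixes. In the first mix (107 control and 333 knockout cells) Cela2a and Cela3b made up most of the elastase UMIs. In the other (2 control and 424 knockout cells) Cela1 made up 89.1% of the Cela1, Cela2a and Cela3b UMIs of both libraries together. Its Cela1 and Cela2a UMIs were 101337 and 3057 in all, of which 101285 and 2994 came from the knockout cells. The 2 control cells, placed there by cluster, thus had fewer Cela1 than Cela2a UMIs. The mixes are called the Cela2a mix and the Cela1 mix below. The second was almost all from 1 library, so that what belongs to the cell state and what belongs to that library cannot be told apart.

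A group of 11 members carried, near the transcription start, a DNA element through which the unfolded protein response is known to act. The ER stress response element (ERSE) is CCAAT, any 9 bases and then CCACG, bound by NF-Y at its CCAAT end and by ATF6 or XBP1 at its CCACG end. ERSE-II is ATTGG, any 1 base and then CCACG. Both were searched on both strands of RefSeq promoter windows (GRCm38.p6) running from 250 bases before to 50 bases after the start, and 37 members had a window. The list of symbols did not use these elements, but it holds genes of the ER stress response. A higher share of matches than among all genes could thus be foreseen, and is given as a description only. The matches are shown here because ER stress acts on these elements. They are printed 5′ to 3′ on the strand of the gene with the match in capitals, between 25 flanking bases, or 9 for Dnajb11. A match read from the opposite strand appears as its reverse complement, starting with CGTGG.
Hspa5, chr2:34772000-34772068, plus strand: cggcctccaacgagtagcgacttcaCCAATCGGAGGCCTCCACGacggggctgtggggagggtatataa
Hsp90b1, chr10:86705508-86705681, minus strand: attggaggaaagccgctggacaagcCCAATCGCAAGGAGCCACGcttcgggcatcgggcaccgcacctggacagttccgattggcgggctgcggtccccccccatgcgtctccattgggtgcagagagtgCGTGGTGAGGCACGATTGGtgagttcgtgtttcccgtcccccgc
Dnajc3, chr14:118937802-118937870, plus strand: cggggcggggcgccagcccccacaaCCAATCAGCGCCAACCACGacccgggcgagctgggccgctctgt
Creld2, chr15:88819495-88819563, plus strand: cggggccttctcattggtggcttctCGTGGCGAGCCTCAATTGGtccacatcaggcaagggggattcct
Dnajb11, chr16:22857843-22857871, plus strand: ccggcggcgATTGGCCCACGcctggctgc
Calr, chr8:84847050-84847118, minus strand: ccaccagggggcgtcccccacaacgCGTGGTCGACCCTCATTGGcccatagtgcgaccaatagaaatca
Canx, chr11:50325775-50325843, minus strand: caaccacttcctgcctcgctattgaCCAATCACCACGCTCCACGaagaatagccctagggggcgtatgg
Pdia6, chr12:17266466-17266534, plus strand: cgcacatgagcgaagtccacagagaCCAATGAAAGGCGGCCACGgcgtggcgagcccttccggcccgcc
Ero1lb, chr13:12565657-12565725, plus strand: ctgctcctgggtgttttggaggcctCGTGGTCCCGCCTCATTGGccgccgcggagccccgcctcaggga
Herpud1, chr8:94386352-94386412, plus strand: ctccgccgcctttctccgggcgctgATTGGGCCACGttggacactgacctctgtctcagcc
Syvn1, chr19:6046507-6046575, plus strand: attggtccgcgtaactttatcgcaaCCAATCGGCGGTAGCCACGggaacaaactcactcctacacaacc

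An ERSE stood in 9 of the 37 members with a window, or 24.3%, against 37 of the 27025 genes with a window, or 0.137%. Those 9 members were Hspa5, Hsp90b1, Dnajc3, Creld2, Calr, Canx, Pdia6, Ero1lb and Syvn1, and Hsp90b1, which encodes the chaperone GRP94, had 2 matches. An ERSE-II stood in Dnajb11 and Herpud1, 2 of 12 genes with one. The element ended 47 bases before the start in Hspa5, 26 bases before it in Syvn1 and 183 bases before it in Ero1lb, whereas that of Dnajb11 ended 17 bases past the start. The start meant is that of the window, and for Ero1lb the RefSeq gene begins upstream of it, at chr13:12565818. No member window held TGACGTGG, the core of the unfolded protein response element, which stood in 193 genes, or TGATGCAAT, searched as the element bound by C/EBP and ATF4 proteins, which stood in 60. A match is a stretch of letters and was not tested for binding, and its absence says only that these letters are not in the window.

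The summed level of the 46 genes was highest in the acinar and beta cells. In the Cela2a mix they took 20397 CPM (control) and 20857 CPM (knockout). Beta cells followed with 18671 CPM (control, 155 cells) and 17436 CPM (knockout, 30 cells), and the Cela1 mix of the knockout library had 15208 CPM. The other hormone cells were lower, with 13022 and 11872 CPM in delta cells and 8740 and 8337 CPM in alpha cells, control first. The delta class also carried Ins2, at 24366 and 11577 CPM, and its part in the summed level was not tested. Ductal cells stood at 7108 and 7398 CPM and mesenchymal cells at 8022 and 8342 CPM. The lowest named control class with at least 10 cells was the pericyte and smooth muscle class at 5181 CPM, and the lowest named knockout class was the glia and neuron class at 4984 CPM. The order of Cela2a mix, beta, delta and alpha cells was the same in both libraries, and the gap between acinar or beta cells and the ductal cells was far wider than the counting intervals.

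**Figure D1:**
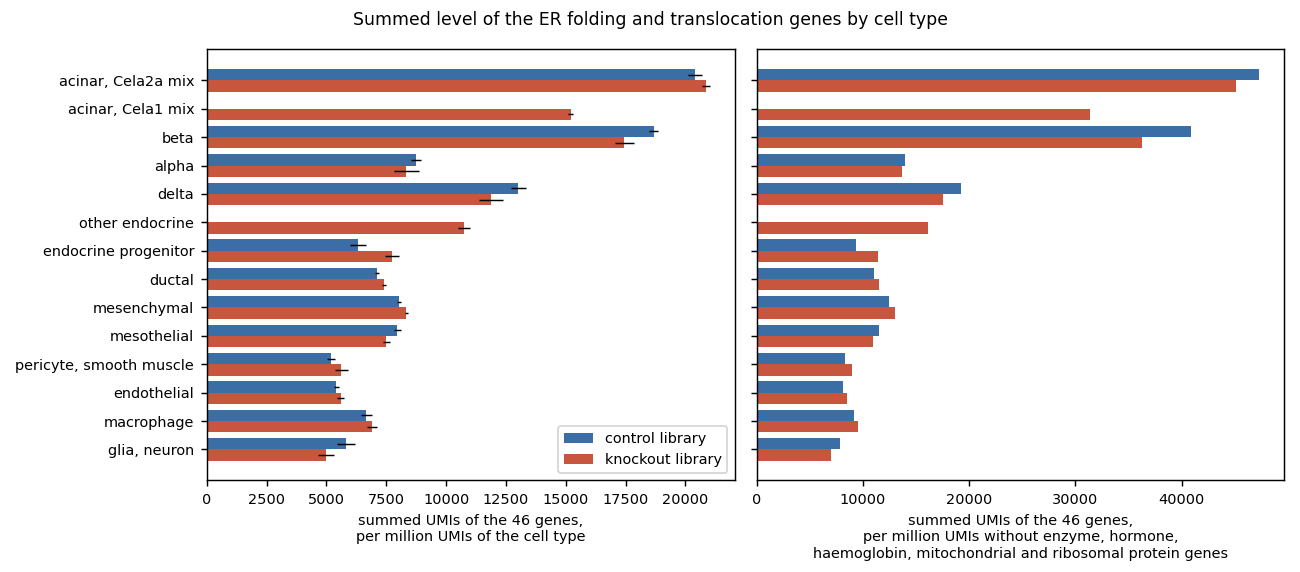
Summed level of the 46 genes by cell class (bars, control and knockout library; classes with at least 10 cells), in CPM of all UMIs of the class on the left and of the UMIs without enzyme, hormone, haemoglobin, mitochondrial and ribosomal protein genes on the right. Black lines on the left are exact 95% Poisson intervals for counting error; acinar and beta bars reach 15208 to 20857 CPM and the ductal bars 7108 and 7398 CPM.

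Of the UMIs of the Cela2a mix 21.0% (control) and 17.2% (knockout) were of digestive enzymes, and enzymes with hormones took 38.4% and 37.1% of those of beta cells. A share of all UMIs therefore understates the machinery genes in these cells. Over the UMIs left after enzymes, hormones, haemoglobin, mitochondrial and ribosomal protein genes were taken out, the 46 genes stood at 47290 and 45067 CPM in the Cela2a mix, 31352 CPM in the Cela1 mix and 40840 and 36269 CPM in beta cells. On that scale the ductal cells had 11005 and 11523 CPM and the alpha cells 13958 and 13641 CPM. The Cela1 mix of the knockout library was below the beta cells of both libraries on either scale.

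Of the 46 genes, 39 had their highest level in an acinar mix or in beta cells in both libraries. The share of all genes that peak in these classes was not counted, so these numbers have no background beside them. In the control library 17 peaked in the Cela2a mix and 23 in beta cells. All 9 chaperones peaked in beta cells there, and 8 of them did so in the knockout library. In the knockout library 17 members peaked in the Cela2a mix, 5 in the Cela1 mix and 18 in beta cells, and 38 members kept the same highest class between libraries when both acinar mixes are taken as one. Of the ERAD genes, 3 of 4 were highest in an acinar mix in each library. The exceptions to the acinar and beta pattern in both libraries were Ero1l in alpha cells, Kdelr2 in mesenchymal cells, Trib3 in ductal cells, and Atf4 and Ddit3 in progenitors or mesothelial cells.

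**Figure D2:**
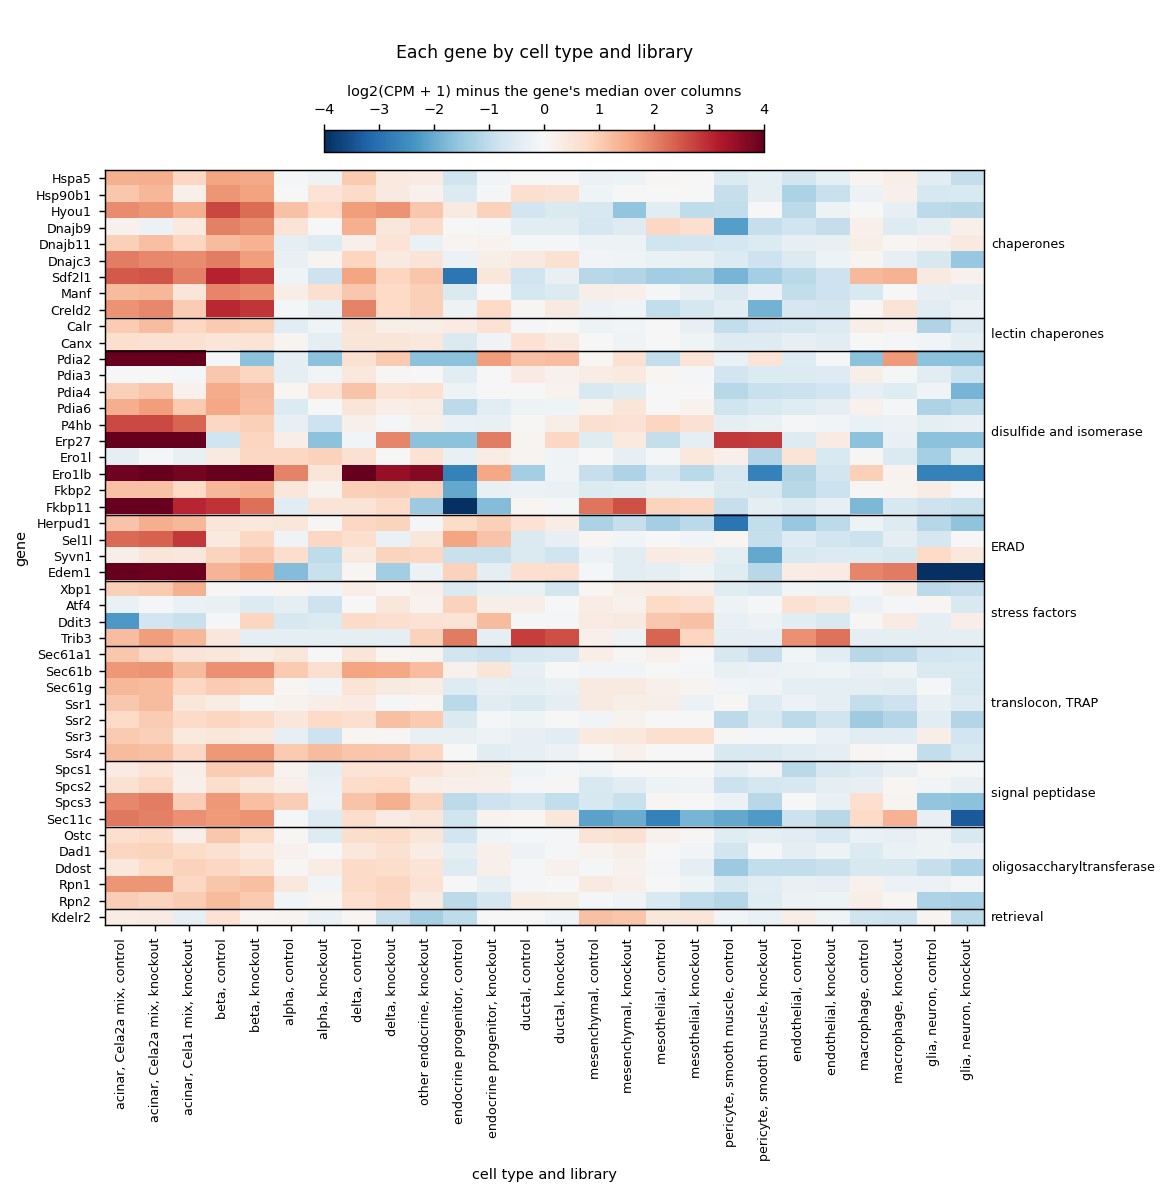
Level of each of the 46 genes (rows, by role) in each cell class and library (columns), as log2(CPM + 1) minus the gene's median over the columns, with the colour scale ending at 4 in either direction. Most chaperone rows are highest in the beta columns, and rows such as Pdia2, Erp27 and Fkbp11 are highest in the acinar columns.

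Among the chaperones, Hspa5 encodes BiP, the Hsp70 of the ER lumen. It stood at 814 CPM in the Cela2a mix and 891 CPM in beta cells of the control library, against 302 CPM in ductal, 283 CPM in alpha and 257 CPM in mesenchymal cells. In the knockout library the same classes had 832, 854, 298, 263 and 259 CPM. Its levels in the Cela2a mix and in beta cells lay close to each other in both libraries, while the Cela1 mix of the knockout library was lower, at 530 CPM. After every cell was thinned to 2000 UMIs, 81.4% of the Cela2a mix (95% exact binomial interval 72.4 to 88.4) and 72.9% of beta cells (65.2 to 79.7) of the control library had an Hspa5 UMI, against 44.5% of ductal cells (40.0 to 49.0). This thinning left out 5 acinar cells, 0 beta cells and 3 ductal cells. Without thinning the median depths were 5962 UMIs per cell in the Cela2a mix, 14906 in beta cells and 9838 in ductal cells.

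Hsp90b1 stood at 1260 CPM in beta cells and 776 CPM in the Cela2a mix of the control library, and at 1134 and 934 CPM in the knockout library. Ductal cells had 586 and 544 CPM of it, so the beta cells of each library were clearly above them. Sdf2l1, whose product sits in a chaperone complex with BiP and its J-domain partners, was lower outside secretory cells. It had 620 CPM in control beta cells, 403 CPM in the Cela2a mix and 221 CPM in delta cells, but 41.9 CPM in ductal cells and 33.0 CPM in mesenchymal cells. Creld2 and Manf, both small secreted or retained ER proteins induced by ER stress, were also highest in beta cells. Creld2 had 344 CPM in control beta cells, 165 CPM in delta cells, 148 CPM in the Cela2a mix and 42.6 CPM in ductal cells. Manf had 846, 460, 526 and 132 CPM in those classes.

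The disulfide and isomerase group split between the acinar and the beta cells. Pdia2, the pancreas-enriched protein disulfide isomerase, stood at 568 CPM (541 UMIs) in the control Cela2a mix and 384 CPM (1320 UMIs) in that of the knockout library, and Erp27, a redox-inactive member of the same family, at 522 and 409 CPM. In control beta cells they had 2.0 and 0.8 CPM, from 5 and 2 UMIs, and in ductal cells 6.2 and 2.4 CPM. In thinned cells, 63.7% of the control Cela2a mix had a Pdia2 UMI against 0 of 155 beta cells (interval up to 2.35%) and 1.01% of ductal cells. Free RNA can give a UMI in a cell that does not express a gene, so the levels of Pdia2 and Erp27 in beta and ductal cells cannot be told apart from that background. Red cell barcodes, for comparison, had 33.0 CPM (4 UMIs) and 44.1 CPM (9 UMIs) of Pdia2 among their UMIs other than haemoglobin.

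Fkbp11, an ER peptidyl-prolyl isomerase found in secretory tissues, had 1158 and 1143 CPM in the Cela2a mix, 175 and 107 CPM in beta cells and 23.8 and 21.4 CPM in ductal cells. Mesenchymal cells, at 104 and 136 CPM, were above ductal cells in Fkbp11 in both libraries. P4hb, the archetypal protein disulfide isomerase, had 1552 and 1565 CPM in the Cela2a mix against 444 and 482 CPM in beta cells. Ero1lb, the ER oxidase enriched in beta cells, had the opposite order from P4hb. It stood at 286 and 268 CPM in beta cells, 139 and 72.5 CPM in delta cells, 96.6 and 102 CPM in the Cela2a mix, 25.1 and 8.2 CPM in alpha cells and 1.5 and 5.0 CPM in ductal cells. Its relative Ero1l, induced by low oxygen, was highest in alpha cells, at 30.7 and 32.9 CPM, with no class far above the others.

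In ERAD, Edem1, a mannosidase-like protein that hands misfolded glycoproteins to degradation, had 273 and 261 CPM in the Cela2a mix, 43.5 and 49.8 CPM in beta cells and 26.2 and 26.6 CPM in ductal cells. Sel1l, the adaptor of the ERAD ubiquitin ligase, had 293 and 315 CPM in the Cela2a mix, 78.6 and 107 CPM in beta cells and 39.9 and 48.2 CPM in ductal cells. Both were highest in acinar cells in either library, but endocrine progenitors also had 181 and 133 CPM of Sel1l. Syvn1, the ligase itself, was sparse and highest in beta cells, at 33.0 and 38.0 CPM, and Herpud1, which recruits ERAD factors, stood between 69.1 and 155 CPM across acinar, beta and ductal cells. Herpud1 was 22.6 and 29.0 CPM in mesenchymal cells.

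Of the 4 stress factors, Atf4, Ddit3 and Trib3 did not follow the chaperones. Xbp1 was at least 2 times the ductal level in the acinar mixes but not in beta cells. Xbp1, whose spliced form drives ER expansion in secretory cells, had 228 and 241 CPM in the Cela2a mix, 122 and 112 CPM in beta cells and 96.5 and 70.2 CPM in ductal cells; 3' tags do not tell the spliced from the unspliced form. Atf4, the effector of PERK and of amino acid stress, stood at 97.7 and 114 CPM in the Cela2a mix, 96.7 and 80.7 CPM in beta cells and 141 and 120 CPM in ductal cells. Ddit3, the pro-apoptotic factor CHOP, had 4.2 and 14.0 CPM in the Cela2a mix from 4 and 48 UMIs, and 23.4 and 45.1 CPM in beta cells from 58 and 19 UMIs. Ductal cells had 23.4 and 23.2 CPM of Ddit3, so acinar cells were below them. Trib3, a target of ATF4 and CHOP, was nearly absent, at 8.0 CPM in control ductal cells from 47 UMIs and at most 3.2 CPM in the acinar mixes.

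For the translocon, signal peptidase and oligosaccharyltransferase genes, the highest control class stood at 1.76 (Spcs2) to 5.00 (Sec11c) times the median of the classes. For the chaperones it stood at 2.40 (Dnajb11) to 11.7 (Sdf2l1) times, so the ranges overlapped. In the control Cela2a mix, 6 of 7 translocon genes and 7 of 9 chaperones were at least 2 times the ductal level. Sec61b, a small subunit of the channel, had 2034 and 2110 CPM in the Cela2a mix and 2155 and 2155 CPM in beta cells, against 483 and 602 CPM in ductal cells. Sec61g, the other small subunit, had 2268 and 2131 CPM in the Cela2a mix, 1826 and 1740 CPM in beta cells, 681 and 739 CPM in ductal cells and 1144 and 1155 CPM in mesenchymal cells. Sec11c, a catalytic subunit of the signal peptidase, was low in mesenchymal cells, at 15.2 and 17.2 CPM against 307 and 287 CPM in the Cela2a mix. Kdelr2, the receptor that returns escaped chaperones to the ER, was the one member highest in mesenchymal cells, at 311 and 297 CPM against 171 and 176 CPM in the Cela2a mix.

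Within each library the members were set against ductal cells, another epithelial class, counting a ratio of at least 2 as higher and of at most 1 over 2 as lower among genes with at least 50 UMIs over both classes. In the control Cela2a mix 28 of 45 members were higher, where 4.37% of all 8739 genes were, and 1, Ddit3, was lower, where 47.4% of genes were. The median log2 ratio was 1.43 for the members and -0.92 for all genes. In the knockout Cela2a mix 30 of 45 members were higher, where 5.63% of genes were, and 0 were lower, where 41.2% of genes were. Among the genes counted, the direction of most members was thus the opposite of that of most genes, in both libraries. The acinar and ductal classes held 952253 and 5843772 UMIs in the control and 3436836 and 4817632 in the knockout library. The limit of 50 UMIs therefore let in ductal-high genes at a lower CPM than acinar-high genes. This tilts the shares of all genes towards lower, by an amount not tested, as it does for beta, delta and alpha cells below.

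Trib3 had too few UMIs to count in these comparisons. Control first, Erp27 led at ratios of 218 (129 to 401) and 89.5 (58.8 to 143), followed by Pdia2 at 92.2 and 59.7, Ero1lb at 62.7 and 20.5 and Fkbp11 at 48.7 (40.8 to 58.5) and 53.4 (43.9 to 65.6). Erp27, Pdia2 and Ero1lb were close to absent from ductal cells, so their ratios rest on few ductal UMIs. Edem1 was 10.4 and 9.83 times, Sdf2l1 9.62 and 7.15 times, Sel1l 7.35 and 6.54 times and P4hb 6.00 and 5.37 times the ductal level. At the other end, Canx, the membrane-bound lectin chaperone, was at 1.03 (0.905 to 1.18) and 1.17 (1.07 to 1.27), Pdia3, its disulfide isomerase partner, at 0.805 and 0.895, Atf4 at 0.693 and 0.951 and Ddit3 at 0.179 (0.0481 to 0.469) and 0.601 (0.419 to 0.85).

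The Cela1 mix of the knockout library had 22 of 45 members above 2 times the ductal level, where 7.41% of genes were, and 0 lower, where 34.9% of genes were. All 4 ERAD genes and 7 of 10 isomerases and oxidases were among them, against 4 of 9 chaperones. Erp27 was at 112 (73.9 to 179), Edem1 at 9.71, Sel1l at 9.01 (7.88 to 10.3) and Xbp1 at 4.43 (3.95 to 4.99). Hspa5 was at 1.78 (1.67 to 1.89), and Hsp90b1 was below the ductal level at 0.783 (0.742 to 0.826).

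In beta cells of the control library 26 of 43 members were higher than in ductal cells, where 9.04% of 9490 genes were, and 0 were lower, where 35.2% of genes were. In the knockout library 24 of 43 were higher, where 6.58% of genes were, and 0 were lower, where 37.2% of genes were. The members' median log2 ratio was 1.18 and 1.06, against -0.59 and -0.57 for all genes. All 9 chaperones passed the 2-fold line in both libraries. No other role group had all its members past it.

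Ero1lb led in beta cells at 186 (97.4 to 408) and 53.8 (34.4 to 87.5). Sdf2l1 followed at 14.8 (12.9 to 17) and 9.33 (7.81 to 11.1), Hyou1, the large nucleotide exchange chaperone, at 12.1 and 7.71, Creld2 at 8.07 and 5.81 and Manf at 6.40 and 5.30. Dnajb9, a J-domain partner of BiP, was 5.62 and 5.08 times the ductal level, and Fkbp11 7.37 and 5.00 times. Atf4 was again below 1, at 0.687 (0.592 to 0.794) and 0.671 (0.46 to 0.949), and Canx was near 1 at 0.923 and 1.13.

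**Figure D3:**
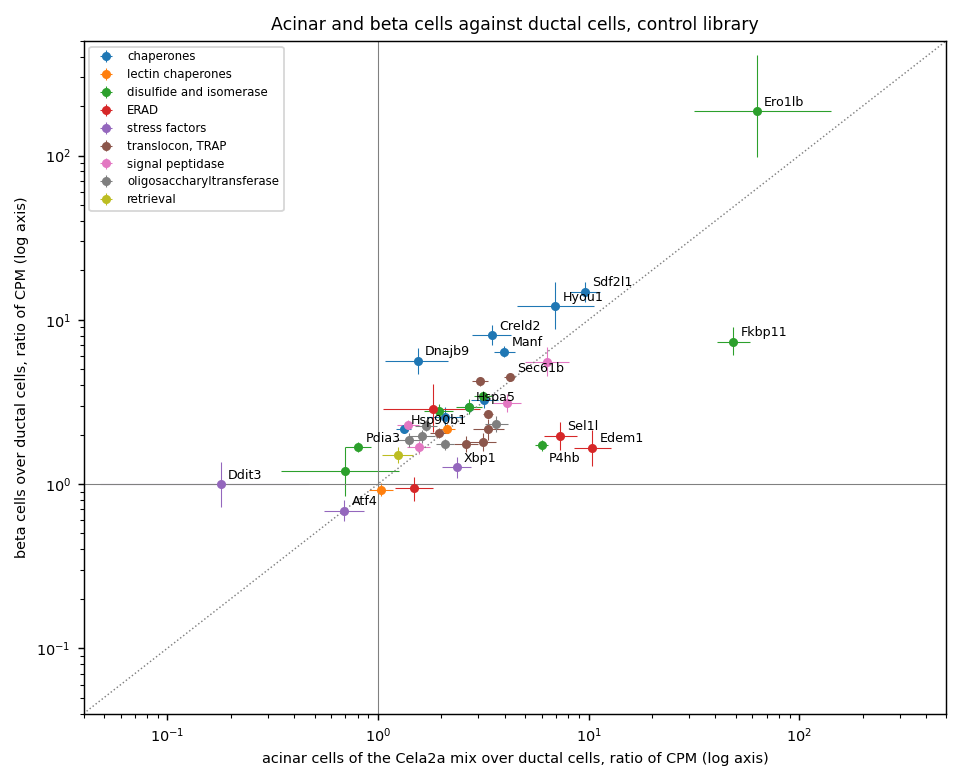
Ratio to ductal cells of each member in the Cela2a acinar mix (x axis) and in beta cells (y axis), both on log scales, in the control library; lines are exact 95% intervals for counting error, colours are roles and the dotted line marks equal ratios. Most members lie above 1 on both axes; Ero1lb is furthest on the beta axis, and Edem1, Sel1l, P4hb and Fkbp11 lie below the diagonal.

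Set against each other in the control library, beta cells were at least 2 times above the Cela2a mix for 5 of 45 members, where 26.7% of genes were, and at most 1 over 2 of it for 6, where 12.2% of genes were. The 5 were Ddit3 at 5.56 (2.06 to 21.1), Dnajb9 at 3.64 (2.67 to 5.09), Ero1lb at 2.96 (2.38 to 3.73), Creld2 at 2.32 (1.94 to 2.79) and Pdia3 at 2.08 (1.81 to 2.4). The 6 were Erp27, Pdia2, Fkbp11 at 0.151 (0.135 to 0.169), Edem1 at 0.159 (0.126 to 0.2), Sel1l at 0.268 (0.222 to 0.323) and P4hb at 0.286 (0.264 to 0.309). In the knockout library 3 members were higher in beta cells, where 16.4% of genes were, and 9 were lower, where 22.9% of genes were. Hspa5 did not separate the classes, at 1.09 (1.01 to 1.19) in the control and 1.03 (0.918 to 1.15) in the knockout library.

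The other classes had less of the machinery. Against ductal cells of the control library, 14 of 43 members were higher in delta cells, where 14.1% of genes were, and 0 were lower, where 21.1% of genes were. In alpha cells 7 of 42 were higher, where 14.8% of genes were, and 1, Edem1 at 0.16 (0.0326 to 0.476), was lower, where 23.6% of genes were. The 14 in delta cells were led by Ero1lb at 90.1 (45 to 205), Hyou1 at 5.93 and Sdf2l1 at 5.26, and the 7 in alpha cells by Hyou1 at 4.16 and Spcs3, a signal peptidase subunit, at 3.27. The alpha cell share was near the background, whereas delta cells stood between alpha and beta cells. The control delta class had 24366 CPM of Ins2, a beta cell hormone gene, beside 24958 CPM of Sst, and 3 of 9 beta markers were high in its cluster. The part of this beta cell RNA in the delta values was not tested.

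Mesenchymal cells, which secrete collagen, differed from ductal cells in few members. In the control library 2 of 43 were higher, where 14.8% of genes were, and 3 were lower, where 19.5% of genes were. In the knockout library 2 were higher, where 14.5% of genes were, and 4 lower, where 19.0% of genes were. The higher pair was the same in both, Fkbp11 at 4.35 (3.61 to 5.27) and 6.37 (5.2 to 7.88) and Kdelr2 at 2.26 (2.07 to 2.45) and 2.39 (2.18 to 2.62). Sec11c at 0.203 and 0.175 and Herpud1 at 0.266 and 0.419 were lower in both.

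Other genes of the same pathways were counted from fixed lists. In the control Cela2a mix against ductal cells, where 4.37% of all genes were higher and 47.4% lower, 6 of 25 genes of vesicle export and retrieval were higher and 1 lower, 5 of 14 glycosylation genes were higher and 2 lower, and 3 of 14 genes of the signal recognition particle and channel partners were higher and 2 lower. Ppib, the ER cyclophilin, had 1793 against 477 CPM, a ratio of 3.76 (3.54 to 3.99). Edem2, a relative of Edem1, was at 9.46 (7.65 to 11.7). Bhlha15, the acinar maturation factor Mist1, which is also an acinar marker here, had 103 CPM against 0.5 CPM from 3 ductal UMIs, a ratio of 200 (66.6 to 989). Of the PERK and ATF4 targets, 2 of 8 were higher and 4 lower, among them Atf3 at 66.2 against 778 CPM and Ppp1r15a at 27.3 against 240 CPM. Both are also immediate early genes. Of 8 collagen-folding genes 0 were higher and 4 were lower.

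In control beta cells, where 9.04% of all genes were higher than in ductal cells and 35.2% lower, 7 of 25 export and retrieval genes were higher and 1 lower, and 4 of 13 further ERAD genes were higher and 0 lower. Derl3, a derlin of the ERAD channel, had 64.5 CPM in beta cells against 0.9 CPM in ductal cells, from 160 and 5 UMIs. Ern1, the gene of IRE1, was at 4.99 (2.73 to 9.47) and Uggt1, which marks misfolded glycoproteins for another folding round, at 5.09 (4.05 to 6.45). Of the PERK and ATF4 targets, 1 of 9 was higher and 5 were lower, with Psat1, a serine synthesis enzyme, at 3.2 against 97.7 CPM.

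The members with an ERSE or ERSE-II did not stand apart in acinar cells but had a higher median in beta cells. In the control Cela2a mix the median log2 ratio to ductal cells was 1.09 for the 11 members with a match and 1.39 for the 25 counted members with a window and no match. In control beta cells it was 1.53 for the 11 and 0.92 for 24 without, and in the knockout library 1.43 and 1.00. Of the 9 members with an ERSE shown above, 8 were at least 2 times the ductal level in control beta cells and 6 in the control Cela2a mix, and in the knockout library 7 were in each of these classes. Of the other genes with an ERSE, 20 were in the files, but only 5 had enough UMIs in the beta comparison, of which 1 was higher and 2 were lower. These medians are descriptions of small groups and were not tested.

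The 2 acinar enzyme mixes of the knockout library differed in the machinery. Against the Cela2a mix, 13 of 45 members were lower by 1.5-fold in the Cela1 mix, where 8.99% of 8389 genes were, and 1 was higher, where 17.9% of genes were. The members' median log2 ratio was -0.32, while that of all genes was 0.14. The interval lay below 1 for 30 members, where it did for 14.8% of genes, and above 1 for 6, where it did for 26.3% of genes. The summed level was 0.729 times that of the Cela2a mix (0.722 to 0.736), and 0.696 times over the UMIs without enzymes and the other abundant genes. The Cela1 cells had a median of 15562 UMIs and 11.9% enzyme UMIs, against 8246 UMIs and 17.2% in the Cela2a mix, and the part of depth and enzyme share in the difference was not tested.

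Fkbp11 differed most, with 193 CPM in the Cela1 mix against 1143 CPM, a ratio of 0.169 (0.159 to 0.18). In cells thinned to 2000 UMIs, 28.9% of the Cela1 mix had an Fkbp11 UMI (24.6 to 33.6) against 87.2% of the Cela2a mix (83.1 to 90.7) and 4.72% of ductal cells. The Cela2a mix consisted of a larger cluster and a smaller one with cell cycle genes, and Fkbp11 stood at 1411 CPM in the first and 708 CPM in the second in the knockout library, both well above the Cela1 cluster. The control library had 1275 and 703 CPM in the same clusters. Fkbp11, ENSMUSG00000003355, lies on chr15:98724368-98728198 (GRCm38.p6).

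The other lower members came from several roles, with none from the lectin chaperones, the ERAD genes or the stress factors. Chaperones were Hsp90b1 at 0.456 (0.433 to 0.48), Creld2 at 0.528, Manf at 0.557 and Hspa5 at 0.637 (0.606 to 0.669), the last from 530 CPM against 832 CPM. Isomerases were Pdia2 at 0.469, from 180 CPM against 486 and 219 CPM in the 2 clusters of the Cela2a mix, Pdia4 at 0.514 and Pdia6 at 0.646. The signal peptidase genes Spcs3 at 0.477 and Spcs2 at 0.652, the translocon-associated Ssr1 at 0.575, the oligosaccharyltransferase gene Rpn1 at 0.520 and Kdelr2 at 0.620 completed the 13. Thus 4 of 9 chaperones and 4 of 10 isomerases passed the 1.5-fold line, and 0 of the 4 ERAD genes did.

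Several members were level or higher in the Cela1 mix. Dnajb9 was at 1.56 (1.26 to 1.93), from 53.4 CPM against 34.3 CPM, Sel1l at 1.38 (1.28 to 1.48), from 434 against 315 CPM, and Xbp1 at 1.29 (1.19 to 1.4), from 311 against 241 CPM. Erp27 was also higher, with an interval of 1.18 to 1.33, although its relative Pdia2 was lower. Edem1 was at 0.988 (0.911 to 1.07), Canx at 1.01 and Syvn1 at 0.993. The mixes therefore did not differ by one factor for all members.

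**Figure D4:**
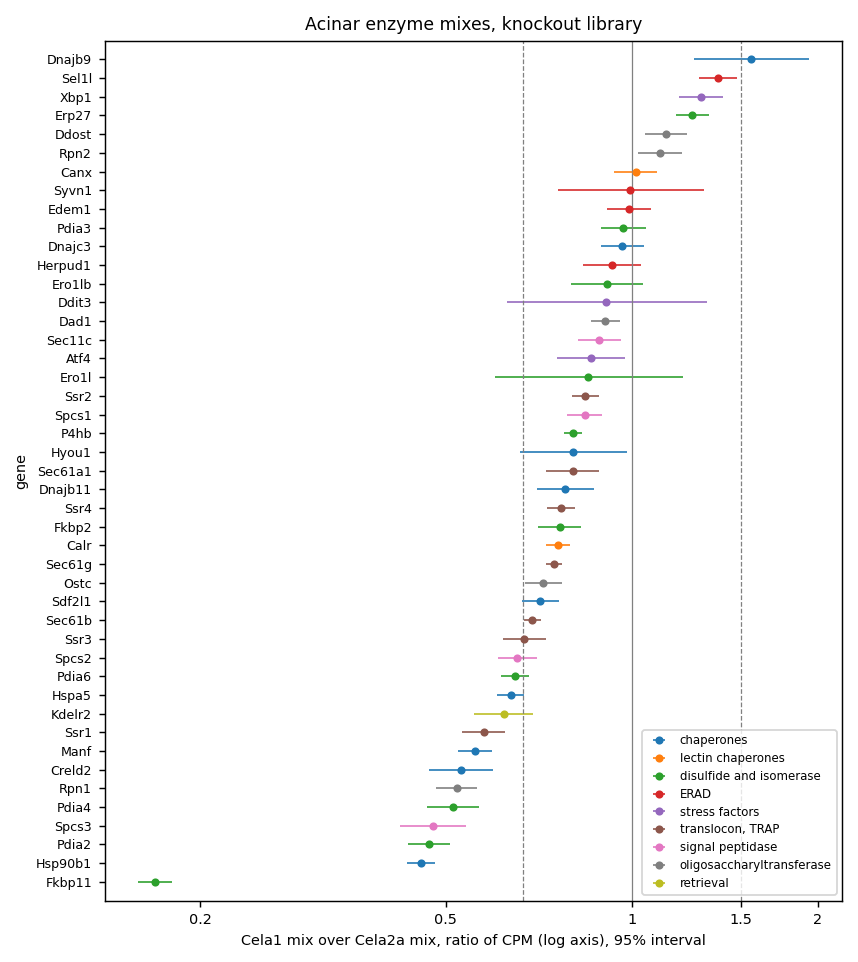
Ratio of the Cela1 mix to the Cela2a mix in the knockout library for each tested member (log scale), by role, with exact 95% intervals for counting error. Fkbp11 is lowest at 0.169 and Dnajb9 highest at 1.56; the dashed lines mark the 1.5-fold limits.

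Among the other pathway genes, and beside 17.9% of all genes higher and 8.99% lower in the Cela1 mix, 5 of 25 export and retrieval genes were lower and 0 were higher, with Kdelr3 at 3.1 against 21.2 CPM, a ratio of 0.144 (0.0829 to 0.238). Derl3 was at 0.326 (0.244 to 0.432) and Tram1, a helper of the Sec61 channel, at 0.533 (0.493 to 0.576). Of 9 sensors and regulators 3 were higher and 0 lower, namely Ern1 at 1.85 (1.15 to 3.08), Atf6b at 1.59 (1.11 to 2.32) and Bhlha15 at 1.52. Ppp1r15a, the phosphatase subunit that ends the PERK signal and also an immediate early gene, was at 2.51 (1.99 to 3.2). The lower retrieval genes included both other KDEL receptors, Kdelr1 and Kdelr3, so all 3 receptors were lower in this mix.

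Between the libraries, the Cela2a mix gave an acinar comparison within 1 enzyme mix. There 1 of 45 members was higher by 1.5-fold in the knockout library, where 13.2% of 5529 genes were, and 0 were lower, where 4.3% of genes were. Hspa5 stood at 1.02 (0.944 to 1.11), P4hb at 1.01 (0.952 to 1.07), Fkbp11 at 0.986 (0.922 to 1.06) and Xbp1 at 1.06 (0.908 to 1.23). The higher member was Ddit3 at 3.32 (1.22 to 12.7), which rests on 4 control UMIs. Hsp90b1 at 1.20 (1.11 to 1.31) and Ssr2, a translocon-associated protein, at 1.19 (1.09 to 1.31) were higher by less, and Pdia2 at 0.676 (0.611 to 0.749) and Erp27 at 0.783 (0.706 to 0.869) were lower by less. The summed level was 1.02 (1.01 to 1.04) of the control but 0.953 (0.938 to 0.968) over UMIs without enzymes and other abundant genes, so its direction turned with the total used. The mix joins 2 clusters, of which the one with cell cycle genes held 18 of the 107 control and 85 of the 333 knockout cells. Over the smaller total the summed level went from 50630 (control) to 52292 CPM (knockout) in the other cluster and from 36846 to 35937 CPM in the one with cell cycle genes. Pdia2 went from 654 to 486 CPM in the first of these and from 236 to 219 CPM in the second.

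With both mixes together the acinar class differed more. Fkbp11 was then at 0.451 (0.423 to 0.481) and Pdia2 at 0.451 (0.411 to 0.495), the 2 lower of 45 members, where 6.66% of genes were lower, and Ddit3 at 2.19 (0.981 to 6.09) was the 1 higher, where 23.7% of genes were. The summed level was 0.841 of the control. This comparison held 424 knockout cells of the Cela1 cluster but only 2 control cells of it, which had fewer Cela1 than Cela2a UMIs. For Fkbp11 the Cela2a mix alone gave no such difference.

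Ductal cells, with 500 control and 383 knockout cells, had 0 of 44 members past 1.5-fold in either direction, where 3.75% of 9934 genes were higher and 3.8% lower. The members ran from Xbp1 at 0.727 (0.633 to 0.833) to Sdf2l1 at 1.40 (1.18 to 1.67). Sec61b (interval 1.18 to 1.31) and Sec11c at 1.32 (1.15 to 1.5) were also above 1, and Herpud1 at 0.814 and Atf4 at 0.853 below. The summed level was 1.04 (1.03 to 1.06) times that of the control.

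In mesenchymal cells 0 of 42 members were higher, where 2.64% of genes were, and 1, Hyou1 at 0.470 (0.286 to 0.761), was lower, where 4.56% of genes were. Fkbp11 at 1.32 (1.19 to 1.46) and Pdia6 at 1.28 (1.19 to 1.36) were higher by less. In macrophages Manf at 1.54 (1.16 to 2.08) and Sec11c at 1.51 (1.1 to 2.08) were the 2 higher of 35, where 5.89% of genes were, and 0 were lower, where 7.04% of genes were. In endothelial cells 0 of 38 were higher, where 4.02% of genes were, and Ero1l at 0.445 (0.206 to 0.883) was the 1 lower, where 5.93% of genes were.

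In beta cells 1 of 43 members was higher, where 11.0% of genes were, and 1 was lower, where 8.94% of genes were. They were Ddit3 at 1.93 (1.09 to 3.29), from 45.1 against 23.4 CPM, and Fkbp11 at 0.609 (0.438 to 0.829), from 107 against 175 CPM. Hspa5 at 0.959 (0.855 to 1.07), Ero1lb at 0.936 (0.761 to 1.14) and Sec61b at 1.00 (0.931 to 1.07) had intervals that held 1. The makeup of the class differed here too, since the 155 control cells fell into several clusters and 23 of the 30 knockout cells into 1 of them.

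That shared cluster, with 65 control and 23 knockout cells, differed from a second cluster with 65 control cells and 1 knockout cell. In the control library 8 of 41 members were higher by 1.5-fold in the shared cluster, where 26.5% of genes were, and 1 was lower, where 2.96% of genes were. They were Hyou1 at 1.85 (1.39 to 2.49), Herpud1 at 1.82, Pdia4 at 1.82, Ssr3 at 1.64, Sec61a1 at 1.62, Canx at 1.62, Atf4 at 1.59 and Hspa5 at 1.55 (1.42 to 1.7). Fkbp11 was lower, at 0.422 (0.331 to 0.533). Insulin transcripts took 29.3% of the UMIs in the shared cluster and 39.6% in the second, and the summed level turned from 1.09 to 0.877 when they and other abundant genes were left out of the total.

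Within the shared cluster, 4 of 39 members were lower in the knockout library, where 10.1% of genes were, and 0 were higher, where 4.0% of genes were. These were Hyou1 at 0.483 (0.277 to 0.797), Dnajc3 at 0.627 (0.465 to 0.834), Herpud1 at 0.634 (0.365 to 1.04) and Pdia4 at 0.655 (0.509 to 0.833). Hspa5 was at 0.811 (0.706 to 0.929), from 952 against 1174 CPM. Fkbp11 was at 1.19 (0.786 to 1.76) there, in place of 0.609 over all beta cells.

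Delta cells, 62 in the control and 23 in the knockout library, had the most lower members. Ins2, a beta cell hormone gene, stood at 24366 CPM (control) and 11577 CPM (knockout) in this class, and its part in the result was not tested. Of 37 tested 8 were lower, where 9.81% of genes were, and 0 were higher, where 6.33% of genes were. Hspa5, the one with most UMIs, stood at 0.640 (0.488 to 0.83), from 396 against 618 CPM. The others were Creld2 at 0.438 (0.224 to 0.789), Kdelr2 at 0.495, Dnajb9 at 0.505, Sel1l at 0.517 (0.224 to 1.06), Ero1lb at 0.522 (0.265 to 0.949), Sdf2l1 at 0.606 and Pdia4 at 0.659. Ssr2 was at 1.44 (1.17 to 1.76). The members' median log2 ratio was -0.20 and that of all genes 0.00. These calls were not stable: the count ran from 2 to 17 over the processing alternatives, Hspa5 was at 1.08 in cells thinned to 2000 UMIs, and Sdf2l1 was above 1 under 4 alternatives, between 1.05 and 1.62. Creld2 and Ero1lb were below 1 under each alternative that gave a value.

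A further class, here called other endocrine cells, carried general endocrine markers and was placed with no single hormone class. Enzymes and hormones took 8.69% of its UMIs in the knockout library, against 8.61% in the alpha cells there. Of the alpha markers 4 of 8 were high in it, and of the beta markers 3 of 9. Its summed level in the knockout library was 10761 CPM, against 8337 CPM in alpha and 11872 CPM in delta cells there. With 90 knockout and 2 control cells it had too few control cells to compare and was set against the control delta cells, at 13022 CPM. Of 37 members 7 were lower, where 8.92% of genes were, and 0 higher, where 10.3% of genes were. Kdelr2 at 0.375 (0.245 to 0.563), Creld2 at 0.488, Herpud1 at 0.544, Ero1lb at 0.593, Hspa5 at 0.614 (0.518 to 0.726), Dnajb9 at 0.636 and Hsp90b1 at 0.663 were the 7. The count ran from 2 to 17 over the processing alternatives. Cell class and library differ at once in this comparison and cannot be told apart.

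Alpha cells (90 control and 14 knockout) and endocrine progenitors (36 control and 47 knockout) gave few UMIs. In alpha cells 1 of 32 members was higher, where 6.74% of genes were, and 2 were lower, where 17.2% of genes were, and the intervals of all 3 held 1. In progenitors 6 of 25 were higher, where 8.64% of genes were, and 1, Atf4 at 0.615 (0.403 to 0.937), was lower, where 8.14% of genes were. In that class Ins2 stood at 357 CPM (control) and 4540 CPM (knockout) and Neurog3, the progenitor factor, at 5219 and 3664 CPM, and their part in the result was not tested. Kdelr2 at 2.05 (1.12 to 3.95) and Hspa5 at 1.62 (1.1 to 2.43), from 278 against 172 CPM, were among the 6. With cells of at most 5% mitochondrial UMIs Hspa5 was at 0.985, and the count of 7 ran from 1 to 16 over the processing alternatives.

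**Figure D5:**
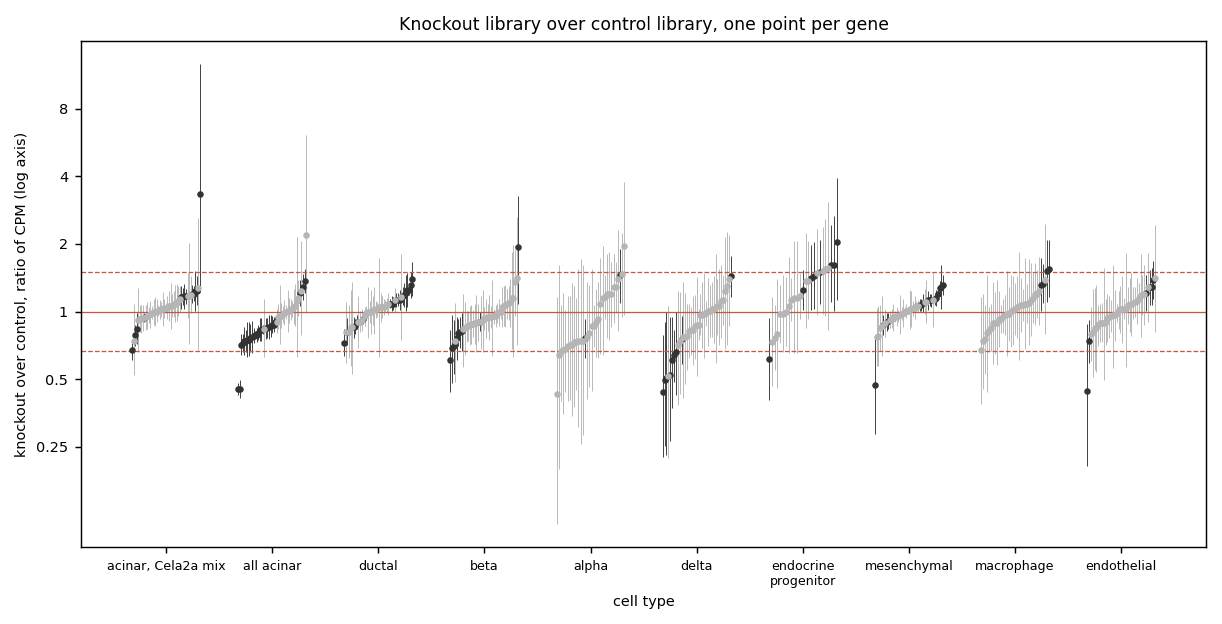
Ratio of the knockout to the control library for the tested members (points, log scale) in each cell class, with exact 95% intervals for counting error as lines; intervals that hold 1 are grey, and dashed lines mark 1.5-fold. Ductal and mesenchymal points lie within or near these lines, between 0.470 and 1.40, and delta points reach down to 0.438.

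Across the 9 classes compared between libraries (with the Cela2a mix for acinar cells), 24 members had enough UMIs in every class. Of these 1, Ssr2, lay on the same side of 1 in at least 8 classes, or 4.17%, against 14.3% of the 1135 genes tested in every class. Ssr2 was above 1 in 8 of the 9, with the interval above 1 in 6. Hsp90b1 had its interval above 1 in 6 classes and below 1 in 3, and Kdelr2 had it above in 1 and below in 3. The interval lay above 1 in at least 5 classes for 2 of the 24 members, or 8.33%, and for 51 of the 1135 genes, or 4.49%. No member was on one side of 1 in all 9 classes.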

How the data were processed

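Single-cell 3' RNA-seq was made from 1 control and 1 knockout pancreas. What was deposited are UMI counts by gene and barcode, not normalised, from Cell Ranger 3.0.0 per the file headers. Per the submitters' processing notes, GRCm38 and mm10 were the builds, and Seurat versions 2 and 3 were among the tools. The authors' deposited table of cluster genes was not used, as it holds no values by sample. The libraries held 25398522 UMIs in 3986 barcodes (control) and 33048640 UMIs in 4779 barcodes (knockout).

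Left out were 1290 control and 1465 knockout barcodes that had under 500 genes, 63 and 57 with more than 10% of UMIs from mitochondrial genes, and 30 and 28 called doublets by Scrublet (expected rate 0.06). Cells were clustered jointly (scanpy 1.11.5, 2000 variable genes, 30 components, 15 neighbours, Leiden resolution 1) without members, enzymes, hormones, haemoglobin, mitochondrial, ribosomal or sex-linked genes, and endocrine cells were clustered again. The 20 clusters and 9 endocrine sub-clusters were named from fixed markers, at least 3 each, with these exceptions. A cluster of 51 control and 98 knockout cells stayed unnamed for few UMIs. An endocrine sub-cluster of 20 control and 20 knockout cells had ductal markers high with Neurog3 leading and was given no class. Neither entered a comparison. Acinar clusters were split at the largest gap in the Cela1 share of the elastase UMIs.

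UMIs were summed per class and library and given as CPM, with exact Poisson intervals for levels and exact conditional binomial intervals for ratios, both 95% (SciPy 1.17.1, NumPy 2.4.6, pandas 2.3.3, Python 3.11.15). UMIs of 1 library are not independent cells or animals, so intervals cover counting error only. A gene was tested where both sides together had at least 50 UMIs, and called at 1.5-fold, or 2-fold between cell types. The calculation was checked on simulated counts. Promoter windows came from RefSeq tables (GRCm38.p6), in which Ero1l and Ero1lb were matched as Ero1a and Ero1b. Protein sequences were not used here.

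Named in each comparison were the 6 members highest and the 6 lowest by the interval bound nearest 1 and the 2 with most UMIs per role, as far as they carried the comparison; across cell types, members whose highest level was at least 5 times the median of the classes in both libraries, with Hspa5, Xbp1, Atf4 and Ddit3; and of other pathway genes the 2 furthest from 1 per list. Members outside this rule that are named were chosen after their values were seen. The members and lists were chosen with earlier results of these data known. The delta, macrophage, endothelial, other endocrine and beta cluster comparisons, alpha, delta and mesenchymal cells against ductal cells, beta against acinar cells and the counts across classes were added after seeing the data. In all, 14 alternatives were tried.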

Additional observations from a re-analysis of the deposited data

Results flagged for a closer look

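Sec61g was high in barcodes that the report's comparisons do not use. In barcodes with at least 50% haemoglobin UMIs, taken as red cells (842 in the control and 1148 in the knockout library), it took 17336 CPM of the UMIs other than haemoglobin in the control library (2102 UMIs) and 14767 CPM in the knockout library (3017 UMIs). The highest cell class stood at 2268 and 2131 CPM. These barcodes held 144 and 178 such UMIs each on average, and the source of the Sec61g UMIs was not tested.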

How the results depend on the processing

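No paired analysis was possible because each group was 1 library. Over 14 alternatives, the count of members highest in acinar or beta cells in both libraries stayed between 35 and 41 (39 as reported). Of the counts of members past the fold, 250 were within 1.5 times the reported count and 61 were not. Of the ratios of named members, 5763 stayed within their counting interval, 702 moved beyond it, 7 reversed and 2 had no value because a side had 0 UMIs. The reversed were Hspa5 in progenitors, at 0.985 with at most 5% mitochondrial UMIs, and in delta cells Hspa5 (1.08 thinned), Kdelr2 (1.05 with doublets kept) and Sdf2l1 (1.41 with at most 5% mitochondrial UMIs, 1.62 with doublets kept, 1.05 at Leiden resolution 2 and 1.28 with members among the clustering genes). For the Cela1 mix over ductal cells (22) the count was 34 over the total without abundant genes and 34 after division by the median ratio of all genes, which also gave 39 for knockout beta over ductal cells (24). At the smaller fold tried the counts were 26 between the mixes (14), 5 for the Cela2a mix between libraries (1), 16 for all acinar (3), 3 for ductal (0), 8 for beta (2), 21 for alpha (3), 16 for progenitors (7) 6 for mesenchymal cells (1), 17 for delta cells (8), 9 for macrophages (2), 8 for endothelial cells (1) and 17 for other endocrine over delta cells (7). With at least 20 UMIs they were 2 for ductal, 12 for progenitors, 3 for mesenchymal and 2 for endothelial cells. Between libraries the Cela2a mix further gave 2 with members among the clustering genes, 2 over the total without abundant genes, 2 after the median, 3 thinned, 3 by mean shares of cells and 0 without cycling clusters, and all acinar cells gave 5, 10 and 6 over the smaller total, after the median and by mean shares. Ductal cells gave 1 with at least 1000 genes, 1 thinned and 1 without cycling clusters, and beta cells 4 over the smaller total, 5 thinned and 4 without cycling clusters. Alpha cells gave 11 with at most 5% mitochondrial UMIs, 5 with doublets kept, 5 after the median and 6 by mean shares. Progenitors gave 2 with at least 1000 genes, 2 with at most 5% mitochondrial UMIs, 4 with doublets kept, 2 at Leiden resolution 2 and 1 thinned. Delta cells gave 4 with at least 1000 genes, 2 with at most 5% mitochondrial UMIs, 4 with doublets kept, 5 at Leiden resolution 2, 2 with members among the clustering genes and 2 thinned. Other endocrine over delta cells gave 2 with at most 5% mitochondrial UMIs, 3 with doublets kept, 4 with members among the clustering genes, 3 thinned and 4 by mean shares. Endothelial cells gave 2 with doublets kept, 3 thinned and 2 by mean shares, and macrophages 1 with at most 5% mitochondrial UMIs and 1 thinned. Against ductal cells, delta cells gave 9 thinned (14) and control mesenchymal cells 8 after the median (5). The beta cluster comparisons and the counts across classes were not recomputed under the alternatives. Apart from the looser fold and UMI limits, which admit more members by construction, the cause of these shifts was not tested. Depth limits the comparisons between libraries most in progenitors, where 21 members had too few UMIs to count, then alpha cells (14), macrophages (11) and delta cells (9).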
